A study of Mus musculus with 4 samples.

Results

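The Mal family and its relatives are membrane proteins with MARVEL domains, and 4 of these genes were followed here in mouse colon epithelium: Mal, Mal2, Mall and Myadm. They were taken by gene symbol from a table of 25796 genes, and for each gene the transcript with the highest mean over the 4 libraries was kept, so transcripts were selected on their mean level. The 4 genes have 9 listed transcripts in all. The group was proposed with results of these data known, so the size of its members' differences is not independent evidence.

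The libraries were inputs, that is, RNA not enriched with the m6A antibody, from a methylated RNA immunoprecipitation experiment on epithelial cells released from mouse colon by chelation. The study's 2 groups were WT (n = 2) and Ythdf1 KO (n = 2), Ythdf1 being a cytoplasmic protein that reads m6A, and the comparison asks which RNAs differ in level when that gene is knocked out. Strain, age, sex, the knockout allele and whether a group's libraries represent separate mice are not stated in the labels or files used, and p-values therefore reflect nothing more than the spread among these samples, which may be technical. All groups share the isolation in a buffer with EDTA, DTT and a ROCK inhibitor.

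The depth was 21686140 to 30951138 reads per library, counted on 1 transcript per gene. The libraries labelled Ythdf1 KO are called KO-labelled here. Ythdf1, the targeted gene, had normalised read counts (reads divided by a size factor per library) of 1088 and 775.4 in WT but 1752 and 1737 in the KO-labelled pair. It was thus higher there, not lower, at a log2 fold change of 0.91 in the authors' deposited table (q = 0.0145). The test used below, limma-trend, gave 0.92 with an adjusted p = 0.759. Every direction below follows the labels. Epithelial markers were present in all libraries: the keratin Krt8, with the highest count of 10 such markers (counts here are not per length), ranged from 97524 to 119172. Markers of T cells, myeloid cells, endothelium, glia and stroma were also counted. Pairs of libraries correlated at 0.809 to 0.833 over all genes (Spearman), with 0.813 for the WT pair and 0.833 for the KO-labelled pair. Pairs across the labels correlated at 0.809 to 0.83, so the WT pair fell within their range.

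Proteins of this family span the membrane with a MARVEL domain, a bundle of helices found in proteins of cholesterol-rich membranes. Mal, first named for myelin and lymphocytes, is needed in cultured dog kidney cells to carry cargo to the apical surface, the face that in colon looks onto the lumen. Mal2 serves transcytosis, the transport of vesicles from the basolateral to the apical face, in human liver cells, and Mall, known as BENE in human cells, is another member of the family. Myadm is a more distant member with repeated MARVEL domains, named as a marker of myeloid differentiation in mouse.

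Mal and Mall lie near each other, with the noncoding gene Gm14244 between them among the genes tested. In mm10, Mal (gene ID 17153, transcript NM_010762.5) lies on the minus strand of chromosome 2 from 127633226 to 127656695, and Mall (gene ID 228576, NM_145532.3) on the same strand from 127704390 to 127729897, 47695 bases away. Mal2 (gene ID 105853, NM_178920.4) lies on the plus strand of chromosome 15 from 54571366 to 54602846, and Myadm (gene ID 50918, NM_001093764.1) on the plus strand of chromosome 7 from 3289038 to 3299349. The 250 bases before the RefSeq start of Mal and of Mall are shown because these nearby relatives had the lowest and the highest log2 difference of the family (RefSeq, build GRCm38.p6, the assembly of mm10; minus strand, 5′ to 3′). The window of Mal is chr2:127656696-127656945 and that of Mall chr2:127729898-127730147. Capitals mark matches to 3 motifs searched on both strands, the CDX site TTTATN, the GC box GGGCGG and the CACCC box CACCC; windows and motifs were chosen after the values were seen.
Mal: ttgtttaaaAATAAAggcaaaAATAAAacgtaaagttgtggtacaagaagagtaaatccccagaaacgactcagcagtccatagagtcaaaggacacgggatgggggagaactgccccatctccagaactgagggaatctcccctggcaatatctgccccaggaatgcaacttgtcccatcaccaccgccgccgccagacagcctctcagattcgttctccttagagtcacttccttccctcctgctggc
Mall: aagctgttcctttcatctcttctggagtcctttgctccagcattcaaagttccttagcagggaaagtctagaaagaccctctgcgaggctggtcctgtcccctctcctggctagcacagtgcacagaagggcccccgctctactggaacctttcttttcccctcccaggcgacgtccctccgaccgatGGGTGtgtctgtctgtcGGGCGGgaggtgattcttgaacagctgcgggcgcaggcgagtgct
The Mal window held 2 CDX matches, read on the other strand as NATAAA and starting 241 and 229 bases before the start, and no GC or CACCC box. The Mall window held 1 GC box, 45 bases before the start, 1 CACCC match, 62 bases before it, and no CDX match. Of 32851 RefSeq promoter windows of this length, 37.2% held the CDX letters, 32.7% the GC box and 52% the CACCC box, so each is common. TATAAA, which can overlap the CDX letters, CCAAT and GATAA were in neither window (12.4%, 33.8% and 22.6% of all windows). These matches describe letters and show no binding.

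Mal was lower in both KO-labelled libraries. Its normalised read count was 1575 (WT 1) and 1740 (WT 2) against 602.1 (Ythdf1 KO 1) and 601.4 (Ythdf1 KO 2). The groups did not overlap, and the lowest WT library lay far above both others. The means were 1657 ± 117 and 601.7 ± 0.498 (SD, n = 2 each), a WT level 2.75 times that under the other label. In bulk RNA, fewer cells of a type and less RNA per cell cannot be told apart.

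The near-identity of both labelled KO values rests on 621 and 727 reads. Counting error alone gives each a standard deviation of 24.2 and 22.3, more than the distance between them, so the SD of 0.498 understates the error. limma-trend, which shares information on spread across genes, gave a log2 difference of -1.46 ± 0.27 (SE), with a 95% interval of -2.11 to -0.81, on the log2(value + 1) scale. The unadjusted p of 0.00135 was the smallest of 23116 genes tested, yet the Benjamini-Hochberg adjusted p over all of them was 0.759, so Mal did not pass the threshold of 0.05. That rank was 60 to 150 when 1 library was left out. With 2 libraries against 2, an exact two-sided permutation test cannot go below p = 0.333.

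Other tests differed in the call. The authors' deposited table lists Mal at -1.46 on the log2 scale (q = 1.78e-07). Reads can be recovered from the values, as these are whole multiples of the value of 1 read. On them DESeq2 gave Mal an adjusted p = 1.16e-07, and edgeR's quasi-likelihood test an adjusted p = 0.833 with the p at rank 9 of all genes. Among 7431 genes with a mean of at least 500, 7 had a log2 difference below that of Mal.

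**Figure D1:**
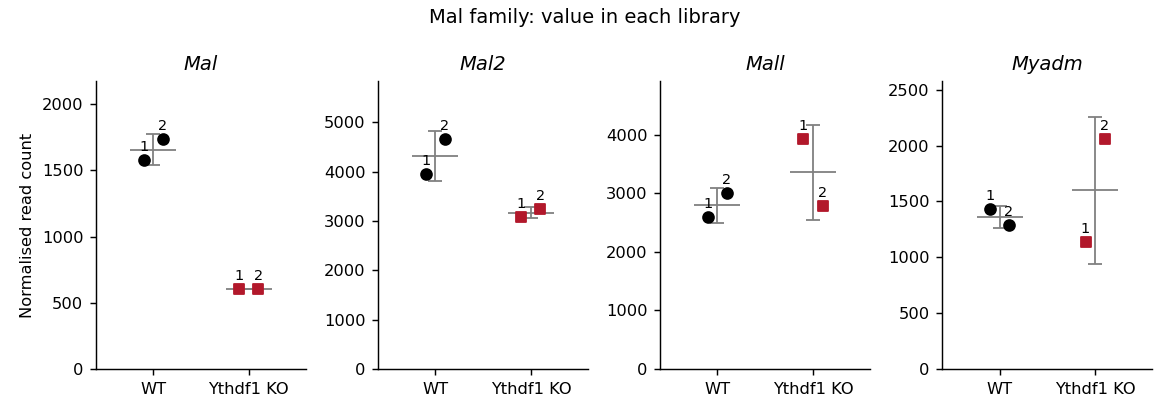
Normalised read count (vertical axes, from 0, each gene with its own scale) of Mal, Mal2, Mall and Myadm in the 2 WT libraries (circles) and the 2 KO-labelled libraries (squares), numbered by replicate, with the group mean (bar) and SD (whiskers). Mal sits at 601.4 and 602.1 in the KO-labelled pair against 1575 and 1740 in WT, Mal2 is separated by less, and the groups of Mall and Myadm overlap.

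Both listed transcripts of Mal were lower. The variant NM_001171187.1, which covers the same span as NM_010762.5, had 1124 and 1461 in WT and 310.2 and 574.1 in the KO-labelled pair. Its groups did not overlap either, but its labelled KO libraries lay far apart. Tested among all transcripts in limma-trend, it had a log2 difference of -1.60 ± 0.41 (SE) and an adjusted p = 0.851, and the authors' deposited table lists it at -1.55 (log2 fold change, q = 0.00291). Its value was 71.4% (WT 1) and 84% (WT 2) of that of the most abundant transcript, against 51.5% (Ythdf1 KO 1) and 95.5% (Ythdf1 KO 2). The share therefore showed no common direction between the groups. The variants overlap over their whole span, so the pair is not 2 independent measurements.

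Mal2 was also lower, by less. Its normalised read count was 3948 (WT 1) and 4667 (WT 2) against 3086 (Ythdf1 KO 1) and 3242 (Ythdf1 KO 2). The groups did not overlap, and the gap between them was about as wide as the gap between the WT libraries. The means were 4308 ± 508 and 3164 ± 111 (SD, n = 2 each), a ratio of 0.735. limma-trend estimated a log2 difference of -0.44 ± 0.18 (SE), with an unadjusted p of 0.0495 and an adjusted p = 0.759. Only 1 transcript of Mal2 is listed, at -0.45 in the authors' deposited table (log2 fold change, q = 0.0878).

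Mall did not separate the groups. It stood at 2589 (WT 1) and 3006 (WT 2) against 3937 (Ythdf1 KO 1) and 2782 (Ythdf1 KO 2). Ythdf1 KO 1 was the highest, and Ythdf1 KO 2 lay between the WT libraries. The means were 2797 ± 295 and 3359 ± 817 (SD, n = 2 each). limma-trend gave a log2 difference of 0.25 ± 0.23 (SE) with an adjusted p = 0.837, and its 95% interval of -0.32 to 0.82 allows ratios from 0.799 to 1.76. Without Ythdf1 KO 1 the log2 difference was -0.004, so its direction rests on that library.

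Myadm varied most between the KO-labelled libraries. It stood at 1428 (WT 1) and 1288 (WT 2) against 1134 (Ythdf1 KO 1) and 2062 (Ythdf1 KO 2). The labelled KO libraries lay on either side of both WT libraries. The means were 1358 ± 98.9 and 1598 ± 656 (SD, n = 2 each), with a log2 difference of 0.17 ± 0.34 (SE), an adjusted p = 0.946 in limma-trend and a 95% interval of -0.65 to 0.99. That difference was 0.60 without Ythdf1 KO 1 and -0.26 without Ythdf1 KO 2. The other 4 listed transcripts, which overlap it, had limma-trend log2 differences of 0.01 to 0.18, and in every one Ythdf1 KO 1 was the lowest library and Ythdf1 KO 2 the highest.

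Among the members, 2 of 4 had both labelled KO libraries below both WT libraries, where 21.4% of all genes tested did, and 0 of 4 had both above, where 14.3% did. An unadjusted p under 0.05 with a lower level was found for the same 2 members, Mal and Mal2, and for 3.52% of all genes. For Mal2 that limma-trend p was 0.0495, and it became 0.0518 with a pseudocount of 5 and 0.0231 with quantile normalisation. In edgeR it was 0.0636 and in DESeq2 0.00536, so the count of members depends on the setting. No member passed an adjusted p of 0.05 in limma-trend, where 0% of genes did. The authors' deposited table called 1 member, Mal, lower at q under 0.05, against 3.58% of genes called lower there, and 0 members higher, against 1.38%. DESeq2 likewise called Mal alone, against 4.61% of genes called lower. The median log2 difference was -0.13 over the members and -0.09 over all genes. It was 0.067 over the 7431 genes with a mean of at least 500, a level that every member reached.

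**Figure D2:**
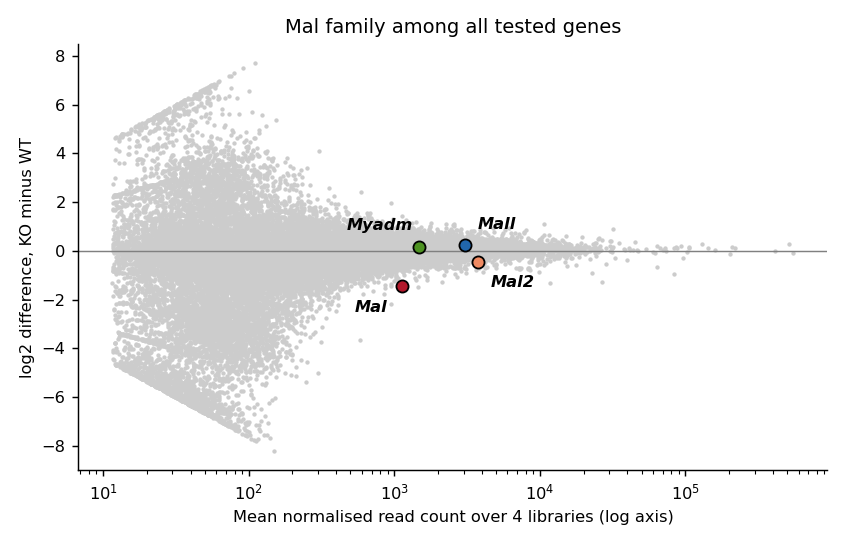
log2 difference between the KO-labelled libraries and WT (vertical axis) against the mean normalised read count (horizontal log axis) for 23116 genes (grey), with the 4 members coloured. Mal, at -1.46, lies at the lower edge of genes of its level, while Mal2 at -0.44, Mall at 0.25 and Myadm at 0.17 lie within the cloud.

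The members did not follow one pattern over the libraries. As the distance between centred log2 profiles over the 4 libraries, Mal2 and Mall were closest (0.80), followed by Mal2 and Myadm (0.87), Mall and Myadm (1.00), and Mal and Mal2 (1.02). Mal lay 1.74 from the nearby Mall and 1.75 from Myadm. The ratio of the Mal value to the Mall value within a library was 0.608 and 0.579 in WT 1 and 2 but 0.153 and 0.216 in KO-labelled libraries 1 and 2. The ratio of Mal to Mal2 was 0.399 and 0.373 in WT and 0.195 and 0.185 in the others. Both ratios were lower in each labelled KO library than in each WT library. Transcript lengths were not used here, so neither ratio is one of molecules, and only its change between libraries can be read.

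The highest library stood 2.89 times above the lowest for Mal, 1.82 times for Myadm, 1.52 times for Mall and 1.51 times for Mal2. For Mal the spread lay between the labelled groups. For Myadm it lay within the KO-labelled pair, which differed by 0.86 on the log2 scale.

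**Figure D3:**
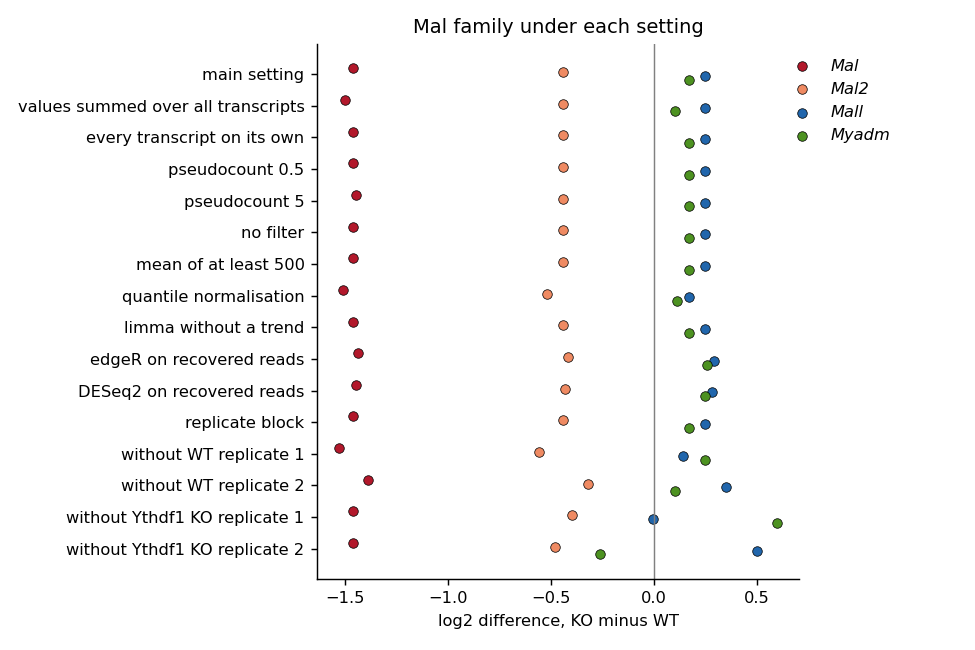
log2 difference between the KO-labelled libraries and WT (horizontal axis) for the 4 members under the main setting and 15 alternatives (rows). Mal stays between -1.53 and -1.39 and Mal2 between -0.56 and -0.32, while Mall falls to -0.004 without Ythdf1 KO replicate 1 and Myadm to -0.26 without Ythdf1 KO replicate 2.

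Within 250000 bases of Mal, 13 other genes were tested. Of these, 4 had both labelled KO libraries below both WT libraries and 0 had both above, where 21.4% and 14.3% of all genes did, so the lower count is near the background. Prom2, a relative of the membrane protein prominin, stood at 278.4 and 175.7 in WT, against 122.2 and 0.8272 in the KO-labelled pair. Fahd2a stood at 239 and 258.5 against 177.4 and 179.5. The other 2, Kcnip3, a regulator of potassium channels, and the noncoding Gm35478, had values under 100 in every library. The nearest gene, Mrps5, a mitochondrial ribosomal protein, was at 333.6 and 678.5 in WT, against 605 and 403.7 in the others, and overlapped. These neighbours were chosen for their position after the values of Mal were seen. None passed in limma-trend, the smallest adjusted p being 0.765.

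**Figure D4:**
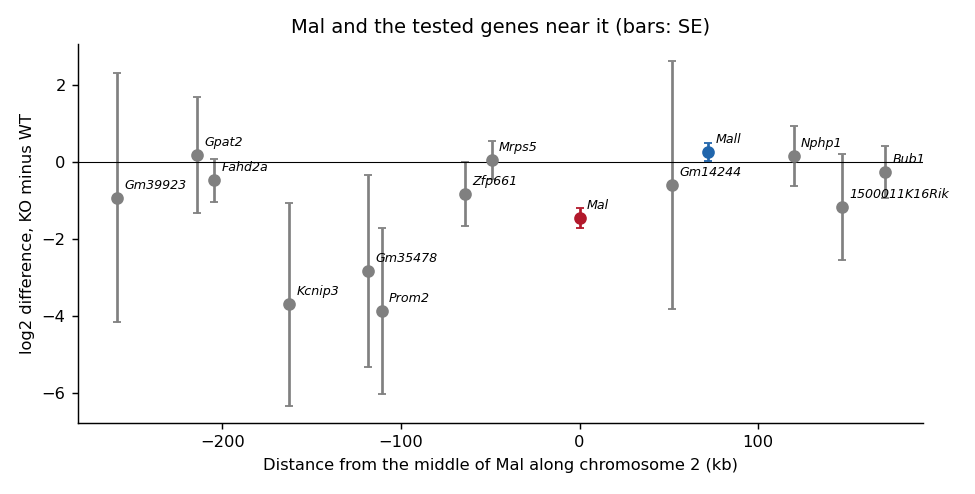
log2 difference between the KO-labelled libraries and WT (vertical axis, bars are SE) for Mal and 13 tested genes against their distance from Mal on chromosome 2 in kilobases. Mal has an SE of 0.27 and Mall of 0.23, while Prom2 has one of 2.16.

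The genes most like each member over the 4 libraries were found by the same distance among 7430 other genes with a mean of at least 500. For Mal they were Fbxl15, an F-box protein (distance 0.314), Paqr8, a membrane progestin receptor (0.323), and Tbx3, a T-box transcription factor (0.360). Tbx3 had 1690 and 2230 in WT and 919.1 and 783.3 in the KO-labelled pair. For Mal2 they were Exoc2, a subunit of the exocyst (0.036), Tlr4, the receptor for lipopolysaccharide (0.050), and the pseudogene Olfr856-ps1 (0.063). Mall was closest to 5830417I10Rik (0.061), Atp13a2, a lysosomal transporter (0.070), and R3hdm4 (0.074). Myadm was closest to Morc2a (0.052), Mavs, an adaptor of antiviral signalling (0.053), and the ribosomal protein gene Rps15a (0.058). Mal had no gene as near as the other members did.

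Other genes of the MARVEL family lay on both sides of 0. Of 25 named, 23 were listed and 21 tested, and 0 passed in either direction. In 6 of them both labelled KO libraries were below both WT libraries, in 1 both were above, and the median log2 difference was -0.02. Over all genes tested 21.4% were below and 14.3% above in this way, with a median of -0.09, and the counts of this list and of those that follow are read against these shares. Sypl2, a synaptophysin-like protein, had the smallest p, at 267.1 and 328.1 in WT, against 96.95 and 72.79 in the KO-labelled pair, a log2 difference of -1.80 ± 0.67 (SE, limma-trend adjusted p = 0.759). Cmtm7, a chemokine-like MARVEL protein, was at 81.15 and 51.49 against 119.2 and 282.1. Syngr1, a synaptogyrin, was at 166.8 and 258.5 against 135.7 and 67.83. Myadml2, a relative of Myadm, stood at 1.127 and 119.1 in WT, while both others read 0, so its difference rests on WT 2.

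Of the 28 tested genes for apical sorting and transcytosis, 0 passed in limma-trend, with 5 above and 3 below without overlap and a median of 0.04. Inf2, a formin that works with Mal2 in transcytosis in human liver cells, was at 2766 and 2557 in WT, against 1683 and 1898 in the KO-labelled pair. Its log2 difference was -0.57 ± 0.21 (SE, limma-trend adjusted p = 0.759), against -0.57 in the authors' deposited table with q = 0.0356. Rab8a, a small GTPase of apical transport, was higher, at 982.9 and 1081 in WT and 2198 and 1618 in the others. Its log2 difference was 0.87 ± 0.27 (SE, limma-trend adjusted p = 0.759), against 0.89 in the authors' deposited table with q = 0.0126. Across the 3 pathway lists these were the only members with q under 0.05 in that table, 1 in each direction.

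Exoc3, an exocyst subunit, stood at 1172 and 1345 in WT, against 770.7 and 944.6 in the KO-labelled pair. Stx3, the apical syntaxin, stood at 1013 and 1614 against 1872 and 1926. Both had non-overlapping groups in opposite directions, with unadjusted p of 0.0925 and 0.0987 in limma-trend. Tpd52, a partner of Mal2 known from human cells, had means of 4851 and 5249 and a log2 difference of 0.11.

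Apical cargo and surface proteins gave small differences on both sides. Of 21 tested, 0 passed, 5 were below and 3 above without overlap, and the median was -0.06. Ceacam1, an adhesion molecule, averaged 105567 ± 6000 in WT and 86012 ± 7520 in the others (SD, n = 2 each), and the sodium/proton exchanger Slc9a3 17981 ± 369 and 14677 ± 398. Lypd8, a GPI-anchored protein that keeps bacteria off the epithelium, averaged 117915 ± 8590 and 141627 ± 10400, and Ceacam20 at 5795 ± 118 and 7175 ± 639. These 4 had log2 differences of -0.30, -0.29, 0.26 and 0.31 in limma-trend, each with an adjusted p = 0.759, and that of Lypd8 was 0.07 with quantile normalisation.

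**Figure D5:**
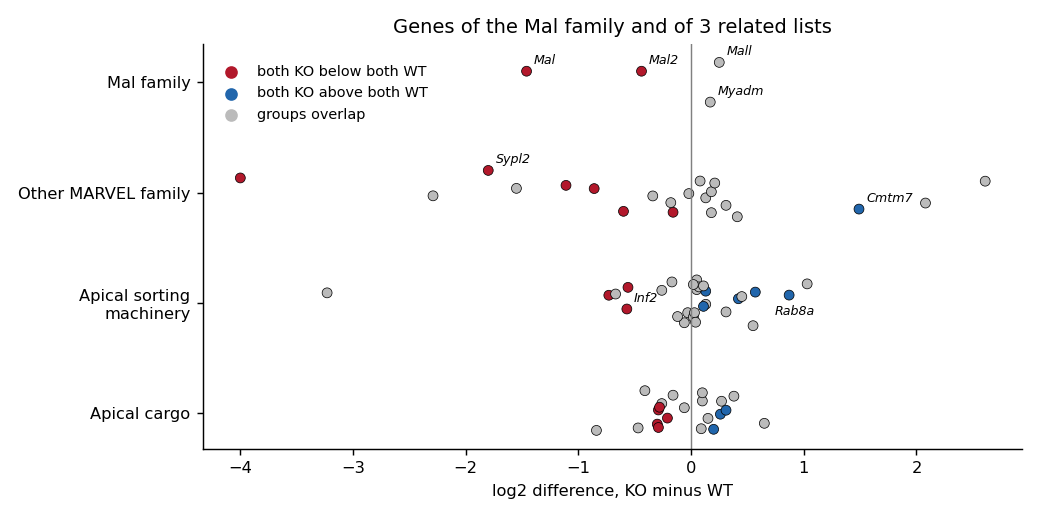
log2 difference between the KO-labelled libraries and WT (horizontal axis) for the 4 members, 21 other MARVEL genes, 28 genes of apical sorting and 21 apical cargo genes (rows, points spread vertically for legibility). Red marks genes with both labelled KO libraries below both WT libraries, blue both above, and grey overlapping groups; differences lie on both sides of 0 in each list.

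Mal is also made by T cells and myelinating glia, so markers of other cells were read beside it. In limma-trend 0 of them passed, where 0% of all genes did. Summed over 8 T cell markers, the level was 919.8 and 828.9 in WT and 713.5 and 498 in the KO-labelled pair. Of the 8, 1 was below without overlap and 0 were above, against 21.4% and 14.3% of all genes. That gene, Cd4, stood at 67.63 and 169.6 in WT, while both others read 0 (q = 0.0022 in the authors' deposited table). Lck, with the highest count of the list, stood at 121.7 and 228.2 against 101.8 and 206. The T cell receptor components Cd3d and Cd3g had log2 differences of 2.52 and 2.14, and Cd3e and Cd247 of -1.38 and -0.52, all with overlapping groups. Cd3d was at 1.01 in WT 2 and Cd3g at 0 in WT 1, so their differences rest on values near 0. The authors' deposited table lists them at 0.79 and 0.23 (log2 fold change). The part of the T cell markers in the lower Mal was not tested.

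Over 7 glial markers the sums were 15256 and 17018 in WT and 17570 and 11808 in the others, and overlapped. Most of each sum was Erbb3, at 12629 and 14780 against 14832 and 9969, so the sum says little about the other markers. Of the 7, 1 was below without overlap and 0 were above. That gene, S100b, stood at 118.4 and 48.46 against 40.72 and 8.272, with a limma-trend log2 difference of -1.97 (adjusted p = 0.832) and one of -1.14 with quantile normalisation. The part of these markers in the lower Mal was not tested.

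Myeloid markers summed to 1869 and 1424 in WT and to 1156 and 1143 in the KO-labelled pair. Of these, 3 of 7 were below and 0 above without overlap, against 21.4% and 14.3% of all genes, shares that also apply to the next 2 lists. Those below were Ptprc, a gene of leukocytes in general, Lyz2 and Adgre1, while Cd14, with the highest count, overlapped. Lyz2 stood at 47.34 and 73.7 in WT, while both others read 0. Adgre1 stood at 103.7 and 29.28 against 0 and 24.82, so the differences of Lyz2 and Adgre1 rest on low values. Endothelial markers summed to 1046 and 1037 against 834.7 and 463.2, with 2 of 7 below and 0 above, and Vwf had the highest count. Stromal and muscle markers summed to 1207 and 3004 against 1342 and 916.5, with 2 of 8 below and 0 above, and Col1a1 had the highest count. Of the 2 below, Pdgfra stood at 276.2 and 349.3 against 17.45 and 78.58 (q = 0.0456 in the authors' deposited table). No marker was at 0 in all 4 libraries. Their part in the values of Mal and Myadm was not tested.

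The 10 epithelial markers summed to 390217 and 430583 in WT and to 368287 and 393124 in the KO-labelled pair, and these sums overlapped. None of the 10 passed in limma-trend, 3 were below and 2 above without overlap, near the shares of 21.4% and 14.3% over all genes. Car1, a carbonic anhydrase of surface colonocytes singled out after its values were seen, stood at 102727 and 116128 in WT, against 73552 and 42374 in the others. Its log2 difference was -0.97 ± 0.24 (SE, limma-trend adjusted p = 0.759). Krt20, a keratin of differentiated surface cells, differed by -0.13. Car2 and Vil1 of the same list differed by -0.16 and 0.01, with overlapping groups. In the apical cargo list, with 5 below and 3 above without overlap, Car4 was above (log2 difference 0.20). Aqp8 and Slc26a3 of that list each differed by 0.10, with overlapping groups. Crypt base and cycling markers summed to 15971 and 17730 in WT and to 21432 and 23859 in the others, with 3 of 8 above and 0 below without overlap, against 14.3% and 21.4% of all genes, and 0 of 8 passed. Mki67, with the highest count, was at 6489 and 8244 against 9025 and 11002. Sox9, at 4647 and 3751 against 7328 and 6633, had the smallest p of the list (log2 difference 0.74, q = 0.00084 in the authors' deposited table). Top2a and Axin2 had log2 differences of 0.50 and 0.02, with overlapping groups. Lgr5, a stem cell marker, stood at 279.5 and 232.2 in WT against 328.7 and 287.9, without overlap (log2 difference 0.27). Olfm4, Ascl2 and Smoc2 of the same list had log2 differences of -3.60, -0.69 and -0.41, with overlapping groups. Olfm4 stood at 175.8 and 3.029 in WT against 3.878 and 0, so its difference rests on WT 1. The part of these markers in the lower Mal was not tested.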

How the data were processed

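Levels were read from the deposited table of 87526 RefSeq transcripts. Its expression signal is a normalised read count: 100% of the deposited values in each library were whole multiples, within 0.001, of that library's lowest value above 0, that is, reads divided by a size factor. In WT 2 the step, 1.01, lies near 1, so it was checked at full precision. Each transcript also carries the authors' p-value, q-value and log2 fold change, per the file headers. Per the submitters' processing notes, the build was mm10 and the tools included Bowtie2 2.2.5 and SAMtools 1.3.1; how reads were counted, and whether by strand, is not stated in the labels or files used.

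Each gene was read from its most abundant transcript, genes reaching 1 in 2 or more libraries were tested, and limma-trend 3.58.1 (robust, R 4.3.3) was run on log2(value + 1) between the labelled genotypes, with no covariate. Adjustment was Benjamini-Hochberg over 23116 genes. Alternatives included edgeR 4.0.16 and DESeq2 1.42.0 on recovered reads. The tests were first checked on simulated reads, in which DESeq2 called more of the unchanged genes than edgeR or limma-trend did.

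The members and lists were chosen with earlier results of these data known. Named were the members, Ythdf1, the 4 genes of smallest p in each of 3 lists, the 3 nearest profiles per member and the highest marker of each list. Tpd52, Car4, Aqp8, Slc26a3, Prom2 and the other neighbours of Mal were chosen after their values were seen. So were all further cell markers named beside the highest of each list, Car1 and Krt20 among them. A planned ranking by level per kilobase was not made, as transcript lengths were not used. Of 133 list entries, 127 were matched by symbol and 6 were not listed in the table.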

Additional observations from a re-analysis of the deposited data

How the results depend on the processing

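Mal kept its direction under all 15 alternatives, with log2 differences of -1.53 to -1.39 and an unadjusted p of at most 0.0268. It passed an adjusted p of 0.05 in DESeq2 (log2 difference -1.45, adjusted p = 1.16e-07) and in none of the other alternatives, where the smallest adjusted p was 0.177. Mal had the smallest p with a pseudocount of 0.5 and with quantile normalisation too, rank 57 with values summed over transcripts, rank 1700 in limma without a trend and ranks 60 to 150 when 1 library was left out. Mal2 kept its direction under all 15 (-0.56 to -0.32, adjusted p from 0.0698 in DESeq2 to 1). Leaving out 1 library in turn gave -0.004 to 0.50 for Mall and -0.26 to 0.60 for Myadm, and both kept their direction elsewhere. Myadm moved to 0.11 with quantile normalisation and to 0.26 in edgeR, and the apical cargo gene Lypd8 from 0.26 to 0.07 with quantile normalisation.

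limma-trend called 0 of 23116 genes, with 1257 at an unadjusted p under 0.05. edgeR also called 0, with 1073 at an unadjusted p under 0.05. limma without a trend called 524 genes and DESeq2 1431, and leaving out 1 library in turn called 0 to 36, the most without Ythdf1 KO 1; without a library, the lone one of its group is assumed to vary like the other group. With the replicate block 0 genes were called and Mal had a log2 difference of -1.46 with an adjusted p = 0.648. Deviations of same-numbered libraries from their group means correlated at 0.0225 over genes with a mean of at least 500. With 2 libraries per group both numbers must give the same value, and a pairing that touches few genes would not show. Whether the replicate numbers pair the libraries was therefore not settled. The value of Mal rests on at least 621 reads in each library. List medians depended on the scaling: that of the other MARVEL genes was -0.02 in limma-trend and 0.14 in edgeR, that of the apical cargo genes -0.06 and 0.10, and that of the endothelial markers -0.67 and, with quantile normalisation, 0.20. The direction of Lck also turned with quantile normalisation, from -0.20 to 0.05.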
